A study of Homo sapiens with 8 samples.

Results

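The genes described here encode the T-cell receptor (TCR) chains and the proteins that first act on its signal. They were chosen by symbol: 38 of the 61228 genes in the count table, made up of 6 receptor constant regions, 4 CD3 and zeta chains, 5 tyrosine kinases, 10 adaptors, 7 enzymes and exchange factors, 5 phosphatases and ubiquitin-pathway regulators, and CD69. The study asked which transcripts change on loss of NKX2-1 in the established human T-cell acute lymphoblastic leukaemia line RPMI-8402; NKX2-1 is a homeobox transcription factor of lung and thyroid that some T-cell leukaemias express. Total RNA was sequenced from 4 clones labelled NKX2-1 knockout, named C12, C15, S04 and S36, and from 4 clones labelled wild type, named WT10, WT13, WT28 and WT30. All 8 were untreated cells of the same line in the same medium, each library is 1 clone, and the labels do not say how the knockout was made or what the letters C and S stand for. KO and WT below are the labelled genotypes.

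A T-cell receptor is a pair of variable chains, alpha with beta or gamma with delta, whose constant regions hold it to the CD3 and zeta chains in the membrane. The variable chains carry no signal themselves: LCK phosphorylates tyrosine motifs on CD3 and zeta, ZAP70 docks there and phosphorylates the adaptors LAT and SLP-76, and these recruit phospholipase C gamma and exchange factors for small G proteins such as Ras. Immature T cells rearrange and transcribe these loci in a developmental order, and T-cell leukaemias keep part of that programme.

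The 4 KO libraries held 25423215 (C12), 2730285 (C15), 15340134 (S04) and 12344549 (S36) counts, and the WT libraries held between 18453947 and 22916424. Levels below are counts scaled to library size with TMM factors and given as CPM. A floor of 3 counts stood at 1.21 CPM in C15, the shallowest library, and at 0.116 to 0.229 CPM in the other 3 KO clones. NKX2-1 transcript itself was at 72.0, 11.3, 83.6 and 33.4 CPM in C12, C15, S04 and S36, against 56.4, 63.2, 53.6 and 54.3 CPM in WT10, WT13, WT28 and WT30; the genotypes overlap, and counts per gene do not show whether the coding sequence was altered. Markers of the T lineage were present in every clone and summed to 2859 to 3114 CPM in KO clones and 3087 to 3347 CPM in WT clones over 12 genes, led by TCF7, BCL11B and CD3D; CD1E was at 0. Of these, 10 were tested and all 10 had a log2 fold change below 0 in KO against WT, with a median of -0.32, 3 at an unadjusted p under 0.05 and 0 past the threshold (edgeR). The values ran from -1.19 (CD7) to -0.02 (CD3D). Over all 14243 genes tested, 6803 were below 0, 15.5% had such an unadjusted p and 0.316% passed. CD5 averaged 58.9 CPM in KO and 100.6 CPM in WT clones. B-cell markers (12 genes, with MS4A1 and SYK at 0) summed to 15.7 to 25.1 CPM in KO and 18.1 to 25.7 CPM in WT clones. Natural killer cell markers (10 genes, NCR1 at 0) summed to 23.2 to 30.8 CPM in KO and 24.6 to 39.0 CPM in WT clones, and erythroid and platelet markers (8 genes) stayed under 0.4 CPM in both. Myeloid markers (12 genes, with LYZ, S100A8, CD33, FCGR3A and CEBPA at 0) summed to 31.5, 8.07, 33.4 and 11.5 CPM in C12, C15, S04 and S36 and to 27.7 to 33.6 CPM in WT clones, most of it from AIF1.

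The receptor machinery was transcribed in both genotypes, with wide differences among single KO clones. Of the 38 genes, 34 had enough counts to be tested, and 0 passed an adjusted p of 0.05 in KO against WT (edgeR quasi-likelihood test, Benjamini-Hochberg over all 14243 genes tested). Over all genes 45 passed, a share of 0.316%. At an unadjusted p under 0.05 there were 3 (RASGRP1, TRGC2 and GRB2), where 15.5% of all genes lay; DESeq2 also called 0 with 3 at an unadjusted p under 0.05 and limma-voom called 0 with 4. DESeq2 called 3.66% of all genes and limma-voom 0.66%. At an unadjusted p under 0.05 lay 16.5% of all genes in DESeq2 and 16.7% in limma-voom. The median log2 fold change of the 34 was -0.04, with 14 above 0 and 20 below, beside 0.02 for all genes. Within those medians single KO clones stood far from WT: C15 and S36 in the alpha and beta constant regions, and S04 and S36 in the gamma constant region; RASGRP1 was below WT in all 4 KO clones. Because each sample is bulk RNA, fewer cells with a transcript and less of it per cell cannot be told apart.

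**Figure D1:**
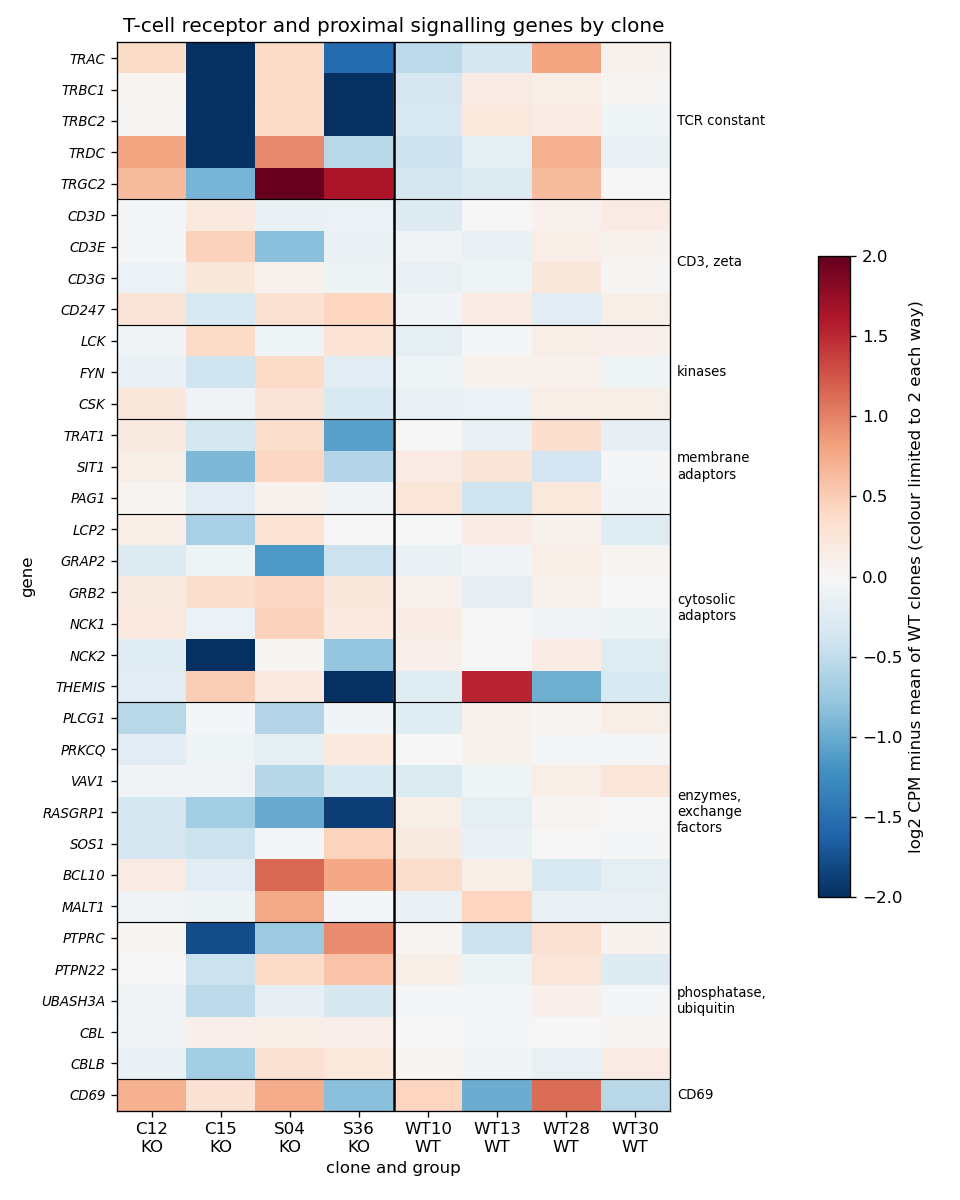
Rows are the 34 tested genes grouped by role, columns are the 4 KO clones and then the 4 WT clones, and colour is log2 CPM minus the mean of the WT clones, limited to 2 log2 units each way. The KO columns differ from one another: C15 and S36 are deep blue in TRAC, TRBC1 and TRBC2, and S04 and S36 are red in TRGC2.

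The beta constant regions showed the widest split among KO clones. TRBC1 and TRBC2 encode nearly the same constant domain, and a rearranged beta chain uses the one downstream of its joining segment. The first 120 bases of their first exons, 5' to 3' on the plus strand of chromosome 7 (GRCh38, GENCODE 29 transcripts; TRBC1 at chr7:142791694-142791813 and TRBC2 at chr7:142801041-142801160), are printed here because the counts of the 2 genes rest on so few differences; capitals mark the bases at which they differ.
TRBC1: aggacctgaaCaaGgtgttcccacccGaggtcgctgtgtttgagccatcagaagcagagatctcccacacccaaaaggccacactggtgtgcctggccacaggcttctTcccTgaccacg
TRBC2: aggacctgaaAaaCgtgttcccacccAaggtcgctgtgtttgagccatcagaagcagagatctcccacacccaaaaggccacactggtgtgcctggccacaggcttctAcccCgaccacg
Over the 387 bases of the exon they differ at 7, an identity of 98.2%, so reads may be shared between them and their split is uncertain.

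TRBC1 had 209, 18.6, 266 and 36.5 CPM in C12, C15, S04 and S36, against 162, 228, 224 and 208 CPM in WT10, WT13, WT28 and WT30. C12 lay among the WT clones and S04 above them, and C15 and S36 were below every one of them, at -3.45 and -2.48 log2 units from the WT mean. The exact 95% Poisson interval of the C15 value, from 46 counts, was 13.6 to 24.8 CPM, and that of S36 was 33.3 to 40.0 CPM; such intervals cover counting error only. The group means were 133 ± 124 CPM in KO and 206 ± 30.3 CPM in WT clones (SD, n = 4 each). The fold change between groups was -0.61 log2 units (SE 0.63, edgeR adjusted p = 0.684), smaller than the spread among the KO clones.

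TRBC2 followed the same order at a lower level, with 15.2, 1.21, 19.4 and 3.67 CPM in C12, C15, S04 and S36, against 12.1, 17.4, 16.8 and 14.1 CPM in WT10, WT13, WT28 and WT30. The C15 value is 3 counts, the floor itself. The fold change was -0.51 log2 units (SE 0.53, edgeR adjusted p = 0.688). TRBC1 took 93.2%, 93.9%, 93.2% and 90.9% of the counts of both genes in C12, C15, S04 and S36, against 93.0%, 92.9%, 93.0% and 93.6% in WT10, WT13, WT28 and WT30. The Wilson 95% intervals ran from 83.5% to 97.9% in C15 (49 counts) and from 88.1% to 93.0% in S36 (526 counts). The share thus stayed between 90.9% and 93.9% in clones whose counts of both genes differed widely.

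The alpha constant region split in the same clones. TRAC (chr14:22547506-22552154, plus strand) had 22.4, 4.04, 22.8 and 5.88 CPM in C12, C15, S04 and S36, against 12.1, 13.7, 30.01 and 18.2 CPM in WT10, WT13, WT28 and WT30. C15 (10 counts, 95% interval 1.94 to 7.42 CPM) and S36 (4.64 to 7.35 CPM) again lay below every WT clone, and C12 and S04 lay inside the WT range. The means were 13.8 ± 10.2 CPM in KO and 18.5 ± 8.09 CPM in WT clones (SD, n = 4 each), with a fold change of -0.35 log2 units (SE 0.49, edgeR adjusted p = 0.771).

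TRDC, the delta constant region that lies inside the alpha locus and is deleted when alpha rearranges, had 11.5, 1.21, 12.98 and 4.43 CPM in C12, C15, S04 and S36, against 4.95, 5.82, 10.9 and 6.04 CPM in WT10, WT13, WT28 and WT30. C12 and S04 were above all WT clones and C15 (3 counts) and S36 below them, so the means nearly matched at 7.54 ± 5.64 CPM in KO and 6.92 ± 2.67 CPM in WT clones (SD, n = 4 each). The fold change was 0.23 log2 units (SE 0.49, edgeR adjusted p = 0.862). An antisense transcript, AC244502.1, lies over TRDC, and the sources used here do not say whether counting used strand.

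In the clones low in TRAC, TRBC1 and TRBC2, other values moved as well. NKX2-1 transcript and AIF1 were lowest in the same pair, AIF1 at 30.2, 6.46, 29.6 and 10.3 CPM in C12, C15, S04 and S36, against 26.1, 33.1, 30.8 and 27.0 CPM in WT10, WT13, WT28 and WT30. C15 and S36 were also the smallest libraries, at 2730285 and 12344549 counts. Mitochondrially encoded genes held 14.8%, 21.2%, 18.5% and 16.8% of counts in C12, C15, S04 and S36, against 12.9% to 15.1% in WT clones, highest in C15. The share in S04, which was not low in these chains, was above that in S36. The part of these values in the receptor chain values was not tested.

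The gamma constant region was high in S04 and S36. TRGC1 and TRGC2 are also near copies; the first 120 bases of their first exons are printed 5' to 3' from the minus strand of chromosome 7 (GRCh38, GENCODE 29; TRGC1 at chr7:38265559-38265678 and TRGC2 at chr7:38249453-38249572), since TRGC2 holds all counts of the pair, with capitals at the differing bases.
TRGC1: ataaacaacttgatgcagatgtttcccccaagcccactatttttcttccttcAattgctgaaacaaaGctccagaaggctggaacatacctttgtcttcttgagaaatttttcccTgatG
TRGC2: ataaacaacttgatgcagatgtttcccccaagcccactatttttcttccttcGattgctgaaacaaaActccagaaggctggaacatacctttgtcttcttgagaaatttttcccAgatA
Their first exons differ at 6 of 330 bases, an identity of 98.2%.

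TRGC2 had 25.04, 8.48, 78.7 and 50.4 CPM in C12, C15, S04 and S36, against 12.7, 13.3, 25.2 and 16.0 CPM in WT10, WT13, WT28 and WT30. S04 and S36 were above every WT clone, by 2.27 and 1.63 log2 units from the WT mean, while C12 lay inside the WT range and C15 below it. The means were 40.7 ± 30.7 CPM in KO and 16.8 ± 5.79 CPM in WT clones (SD, n = 4 each). The fold change of 1.31 log2 units (SE 0.49) had an unadjusted p of 0.0229 and did not pass (edgeR adjusted p = 0.246). S04 and S36 alone against WT gave 1.93 log2 units (SE 0.29, edgeR adjusted p = 0.00629), a comparison in which 14.5% of all genes passed.

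TRGC1 was listed at 0 in all 8 clones. TARP, whose RefSeq span on chromosome 7 (38259643 to 38273636) takes in TRGC1 (38260088 to 38265678), was listed at 0 too. Reads over 2 genes may be left uncounted, and whether that happened here was not tested, so the 0 is not read as a level.

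**Figure D2:**
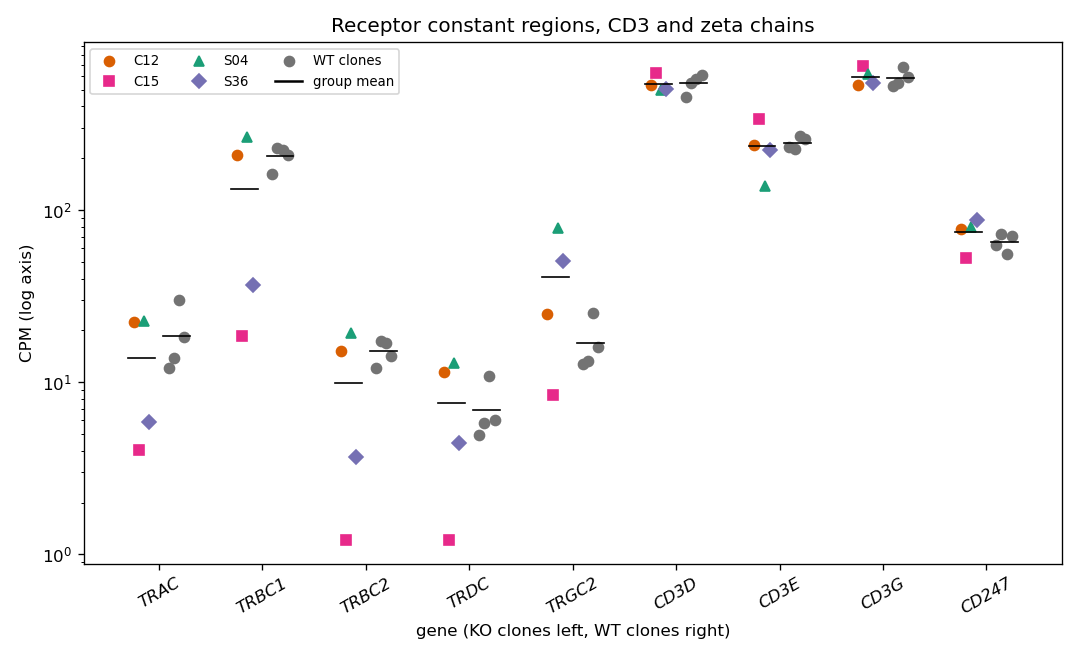
CPM on a log axis for the 9 receptor, CD3 and zeta chains with counts; coloured symbols are the KO clones, left of the grey WT clones, and bars are group means. C15 and S36 fall below all WT clones in TRAC, TRBC1 and TRBC2, S04 and S36 lie above them in TRGC2, and the 3 CD3 chains stay between 138 and 685 CPM in every clone.

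Variable segments were counted thinly. Of 220 variable, diversity and joining segments in the table, 36 had any count, with 2158 counts over all 8 libraries, and 5 were tested. The beta variable segments held 43 counts over 67 genes, so these counts do not show which beta chain the clones use. By mean level the leading segments were TRAV30, TRGV4, TRGV2, TRGV1, TRAV36DV7 and TRGV3.

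TRGV4, a gamma variable segment, had 4.90, 3.63, 11.7 and 8.33 CPM in C12, C15, S04 and S36, against 2.02, 2.47, 5.24 and 2.66 CPM in WT10, WT13, WT28 and WT30, and thus was highest in the clones with most TRGC2. Its fold change was 1.25 log2 units (SE 0.40, edgeR adjusted p = 0.189). TRGV1 was also highest in S36, at 4.66 CPM, against at most 1.42 CPM in a WT clone (fold change 1.07 log2 units, edgeR adjusted p = 0.423). TRAV30 had 4.75, 4.84, 4.65 and 7.49 CPM in C12, C15, S04 and S36, against 5.48, 7.40, 4.72 and 4.93 CPM in WT10, WT13, WT28 and WT30. Unlike TRAC, it was not below the WT clones in C15 or S36 (fold change -0.04 log2 units, edgeR adjusted p = 0.964).

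Genes beside the constant regions were read in the same libraries. EPHB6, a receptor-like gene next to TRBC2, was 0.07, 0.53, -0.94 and -0.43 log2 units from its WT mean in C12, C15, S04 and S36, and CASP2 further along was within 0.28 of it in all 4, so neither was as low as the beta constant regions in C15 and S36. Beyond TRAC, DAD1 was 0.18, -0.78, 0.51 and -0.52 log2 units from its WT mean in C12, C15, S04 and S36, the same order as TRAC with a smaller size, while ABHD4 next to it was at -1.67, -4.74, -0.35 and -1.68. The genes within 5 Mb of TRAC had a median of 0.01, 0.06, 0.02 and -0.42 log2 units in C12, C15, S04 and S36, and those within 5 Mb of TRBC1 a median of -0.05, -0.43, -0.26 and -0.26. In the gamma locus, STARD3NL, beside TRGC2, was 0.26, -1.33, 0.54 and -0.37 log2 units from its WT mean in C12, C15, S04 and S36. The 5 Mb around TRGC2 had medians of -0.02, -0.28, 0.16 and 0.01.

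**Figure D3:**
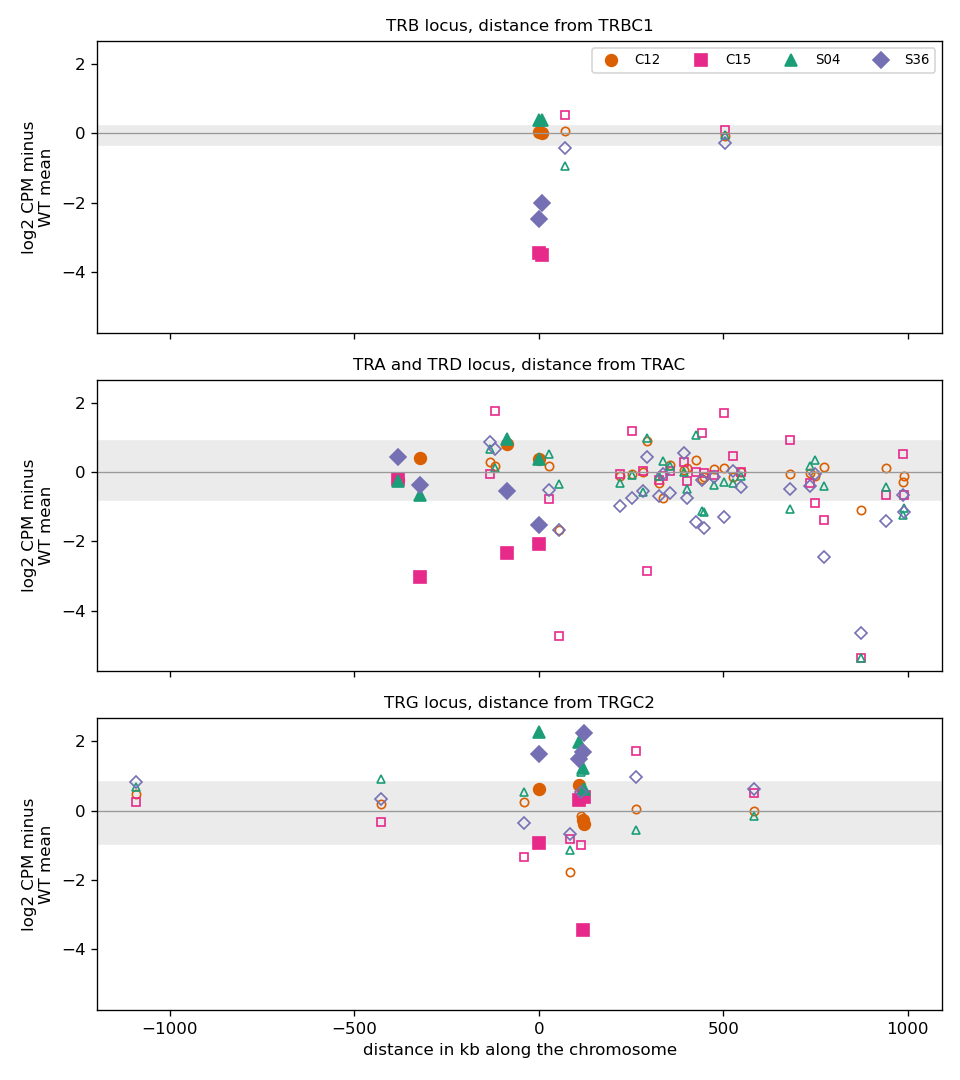
Each tested gene lying at least partly within 1 Mb of a constant region is placed by its distance in kb along the chromosome, and the vertical axis is log2 CPM minus the WT mean in each KO clone; filled symbols are receptor genes, open symbols are other genes, and the grey band spans all WT values of the panel. In the TRB panel C15 and S36 lie far under the WT mean at TRBC1 and TRBC2, and in the TRG panel S04 and S36 lie above the band at TRGC2.

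CD3D and CD3G had the highest CPM of all members in every clone. CD3D, CD3E and CD3G lie together on chromosome 11 and encode the delta, epsilon and gamma signalling chains. CD3D had 535, 626, 495 and 501 CPM in C12, C15, S04 and S36, against 456, 548, 578 and 609 CPM in WT10, WT13, WT28 and WT30; its means were 539 ± 60.2 CPM in KO and 548 ± 66.2 CPM in WT clones (SD, n = 4 each). The groups overlap throughout, with a fold change of -0.02 log2 units (SE 0.15, edgeR adjusted p = 0.965). Per kilobase of transcript CD3D led all members, at 627 CPM per kb in KO and 636 CPM per kb in WT clones, ahead of TRBC1 at 175 and 271 CPM per kb, CD3G at 221 and 218, CD3E at 152 and 159 and LCK at 157 and 143.

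The CD3D promoter is printed because it stands before the member highest per length and holds a RUNX motif; the study's title names RUNX1 beside NKX2-1. It is the minus strand of chr11:118342656-118342955 (RefSeq, GRCh38.p14), 5' to 3', running 250 bases before the start to 50 after it, and the capitals mark the motif at -200.
CD3D: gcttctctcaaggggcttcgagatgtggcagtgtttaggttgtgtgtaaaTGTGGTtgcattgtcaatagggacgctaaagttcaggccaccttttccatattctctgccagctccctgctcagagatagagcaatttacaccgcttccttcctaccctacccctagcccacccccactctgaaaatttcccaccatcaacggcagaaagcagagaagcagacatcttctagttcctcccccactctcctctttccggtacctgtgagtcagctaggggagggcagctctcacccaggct
The motifs searched were TGTGGT for RUNX, CAAGTG for NKX2-1 and CAGCTG for E proteins, on both strands; CAAGTG is also an E-box of the CANNTG form. RefSeq gave 42 promoters for 26 of the 38 genes. TGTGGT was in 8 of these (19.0%) and in 13.1% of all 35116 promoters, CAAGTG in 2 (4.76%, all promoters 11.5%), and CAGCTG in 9 (21.4%, all promoters 17.9%). These are matches of letters only.

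CD3G had 535, 685, 616 and 544 CPM in C12, C15, S04 and S36, against 525, 547, 679 and 592 CPM in WT10, WT13, WT28 and WT30 (fold change 0.02 log2 units, SE 0.15, edgeR adjusted p = 0.965). CD3E was more variable, with 240, 337, 138 and 223 CPM in C12, C15, S04 and S36, against 234, 225, 268 and 258 CPM in WT10, WT13, WT28 and WT30. Its high C15 and low S04 values cancelled in the KO mean of 235 ± 81.8 CPM, beside 246 ± 20.5 CPM in WT clones (SD, n = 4 each; fold change -0.07 log2 units, SE 0.23, edgeR adjusted p = 0.912). Thus C15, with the least TRBC1, had the highest CD3D, CD3E and CD3G values of the 8 clones. The next highest values were 609 CPM for CD3D in WT30, 679 CPM for CD3G in WT28 and 268 CPM for CD3E in WT28. The lead was thus small for CD3D and CD3G.

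CD247, the zeta chain with the largest share of the signalling motifs, had 77.4, 52.5, 79.9 and 87.8 CPM in C12, C15, S04 and S36, against 62.6, 72.5, 55.8 and 70.3 CPM in WT10, WT13, WT28 and WT30. C12, S04 and S36 were above every WT clone and C15 below every one. The means were 74.4 ± 15.3 CPM in KO and 65.3 ± 7.62 CPM in WT clones (SD, n = 4 each), and the fold change was 0.20 log2 units (SE 0.17, edgeR adjusted p = 0.618).

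Of the 5 tyrosine kinases, 3 were transcribed at a level that could be tested and 0 of these passed (edgeR, with 0 at an unadjusted p under 0.05). LCK, which starts the cascade, had 291, 389, 282 and 363 CPM in C12, C15, S04 and S36, against 265, 293, 328 and 322 CPM in WT10, WT13, WT28 and WT30 (fold change 0.13 log2 units, SE 0.15, edgeR adjusted p = 0.723). FYN, its relative, lay between 66.6 and 115 CPM in KO and between 82.8 and 93.5 CPM in WT clones, and CSK, the kinase that restrains both, between 27.5 and 40.6 CPM in KO and between 30.8 and 37.3 CPM in WT clones. ZAP70, the kinase that docks on phosphorylated CD3 and zeta, was near the floor in both genotypes: it had 9, 0, 2 and 4 counts in C12, C15, S04 and S36, and 5, 14, 6 and 0 counts in WT10, WT13, WT28 and WT30, at most 0.347 CPM in KO and 0.735 CPM in WT clones. SYK, the related kinase of B cells, was at 0 in all 8. TXK, a Tec family kinase, reached 0.579 CPM in KO and 0.33 CPM in WT clones.

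Among the membrane adaptors 0 of 3 tested genes passed (edgeR, with 0 at an unadjusted p under 0.05). TRAT1, which associates with the receptor complex, had 58.4, 40.4, 66.2 and 24.1 CPM in C12, C15, S04 and S36, against 51.0, 46.3, 65.0 and 46.1 CPM in WT10, WT13, WT28 and WT30. S36 was 1.09 log2 units below the WT mean, and the group fold change was -0.13 log2 units (SE 0.27, edgeR adjusted p = 0.856). Its promoter (plus strand of chr3:108822536-108822835, RefSeq, GRCh38.p14) is shown with the RUNX motif, read on the other strand at -74, in capitals.
TRAT1: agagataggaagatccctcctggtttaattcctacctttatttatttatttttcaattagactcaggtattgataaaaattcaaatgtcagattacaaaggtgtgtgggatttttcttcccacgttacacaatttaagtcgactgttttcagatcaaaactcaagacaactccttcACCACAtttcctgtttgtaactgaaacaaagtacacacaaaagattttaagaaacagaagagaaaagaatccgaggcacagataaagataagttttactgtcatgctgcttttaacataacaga
SIT1, an inhibitory adaptor, lay between 30.3 and 75.3 CPM in KO and between 43.2 and 68.1 CPM in WT clones. PAG1, which anchors CSK at the membrane, lay between 8.07 and 9.96 CPM in KO and between 7.19 and 11.2 CPM in WT clones.

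LAT, the scaffold that ZAP70 phosphorylates, was listed at 0 in all 8 clones. In GENCODE 29 a same-strand transcript (ENSG00000261067, chr16:28974804-28990775) overlaps most of LAT (28984826 to 28990783) and of SPNS1 (28974221 to 28984548), a broadly expressed transporter gene. SPNS1 was listed at 0 in all 8 as well, while NFATC2IP, just before them, had 137 to 234 CPM. The 0 of LAT is therefore not read as a level; the part of the overlap was not tested.

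Among the 6 cytosolic adaptors, GRB2 and GRAP2 had the smallest p between groups. GRB2, which links the complex to the Ras exchange factor SOS1, had 164, 183, 194 and 170 CPM in C12, C15, S04 and S36, against 156, 130, 154 and 146 CPM in WT10, WT13, WT28 and WT30. Every KO clone was above every WT clone. The means were 178 ± 13.1 CPM in KO and 146 ± 11.9 CPM in WT clones (SD, n = 4 each), and the fold change of 0.28 log2 units (SE 0.13) had an unadjusted p of 0.0484 and did not pass (edgeR adjusted p = 0.320). Non-overlap of this kind, in either direction, was found in 3 of the 34 tested members (GRB2 above, RASGRP1 and UBASH3A below), or 8.82%, and in 10.1% of all genes, so the members held no more of it than genes at large.

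GRAP2, the adaptor that carries SLP-76 to LAT, had 69.3, 77.9, 37.1 and 61.5 CPM in C12, C15, S04 and S36, against 75.0, 79.3, 90.6 and 86.2 CPM in WT10, WT13, WT28 and WT30. S04 was lowest, and C15 alone reached the WT range. The means were 61.4 ± 17.6 CPM in KO and 82.8 ± 6.96 CPM in WT clones (SD, n = 4 each; fold change -0.44 log2 units, SE 0.21, edgeR adjusted p = 0.334). S04 and S36 alone against WT gave -0.76 log2 units (SE 0.20, edgeR adjusted p = 0.0398).

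NCK1 and NCK2 are adaptors between the receptor and actin. NCK1 had 35.6, 28.7, 43.2 and 35.8 CPM in C12, C15, S04 and S36, against 34.5, 31.4, 30.1 and 29.04 CPM in WT10, WT13, WT28 and WT30 (fold change 0.21 log2 units, SE 0.16, edgeR adjusted p = 0.567). NCK2 had 16.7, 4.84, 20.5 and 11.6 CPM in C12, C15, S04 and S36, against 21.4, 19.8, 22.0 and 16.8 CPM in WT10, WT13, WT28 and WT30 (fold change -0.51 log2 units, SE 0.31, edgeR adjusted p = 0.461). It was lowest in C15, and C12, C15 and S36 lay below every WT clone. Genes of chromosome 2, where NCK2 lies, had medians of -0.34, -0.43, -0.36 and -0.24 log2 units from the WT mean in C12, C15, S04 and S36. NCK2 itself was at -0.25, -2.01, 0.04 and -0.77 log2 units in these clones, so in S04 it was not low with its chromosome. The part of the chromosome was not tested.

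LCP2, which encodes SLP-76, lay between 31.1 and 59.0 CPM in KO and between 41.6 and 54.5 CPM in WT clones (fold change -0.01 log2 units, SE 0.19, edgeR adjusted p = 0.985). THEMIS, a regulator of receptor signalling in thymocytes, was low everywhere: 31, 5, 27 and 0 counts in C12, C15, S04 and S36, and 22, 81, 14 and 25 counts in WT10, WT13, WT28 and WT30. The 0 in S36 allows up to 0.229 CPM at a floor of 3 counts, below the 0.661 to 4.25 CPM of the WT clones.

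RASGRP1 was the member with the smallest p between groups. It is a Ras exchange factor recruited by diacylglycerol, and lies at chr15:38488103-38565575 on the minus strand (GRCh38, GENCODE 29). It had 43.3, 34.7, 27.3 and 14.98 CPM in C12, C15, S04 and S36, against 60.2, 49.0, 57.7 and 55.4 CPM in WT10, WT13, WT28 and WT30. All 4 KO clones were below all 4 WT clones, and the S-named clones were below the C-named ones. The means were 30.1 ± 11.98 CPM in KO and 55.6 ± 4.81 CPM in WT clones (SD, n = 4 each). The fold change of -0.89 log2 units (SE 0.27) had an unadjusted p of 0.00652 and did not pass over all genes (edgeR adjusted p = 0.167). It passed without C12 (-1.15 log2 units, edgeR adjusted p = 0.0472, in a fit that called 3.13% of genes), with no low-count filter (adjusted p = 0.00543, 1.85% of genes) and in S04 and S36 alone against WT (-1.40 log2 units, SE 0.24, adjusted p = 0.00965). Genes within 5 Mb of it had medians of 0.10, 0.10, 0.21 and 0.12 log2 units from the WT mean in C12, C15, S04 and S36. The part of the region in its level was not tested.

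SOS1, the Ras exchange factor carried by GRB2, had 50.7, 47.2, 62.0 and 87.4 CPM in C12, C15, S04 and S36, against 72.4, 58.4, 63.6 and 62.2 CPM in WT10, WT13, WT28 and WT30. C12 and C15 were below the WT clones and S36 above them, which left a fold change of -0.05 log2 units (SE 0.19, edgeR adjusted p = 0.941). VAV1, the exchange factor for Rac, had 86.0, 84.8, 60.1 and 72.0 CPM in C12, C15, S04 and S36, against 74.3, 83.9, 96.7 and 106 CPM in WT10, WT13, WT28 and WT30. Only S04 and S36 were below the WT clones (fold change -0.26 log2 units, SE 0.16, edgeR adjusted p = 0.489).

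PLCG1, the phospholipase that makes diacylglycerol and releases calcium, had 37.7, 54.9, 36.9 and 53.6 CPM in C12, C15, S04 and S36, against 46.9, 58.7, 57.3 and 60.3 CPM in WT10, WT13, WT28 and WT30. C12 and S04 were below every WT clone (fold change -0.30 log2 units, SE 0.17, edgeR adjusted p = 0.445). The genes of chromosome 20, which holds PLCG1, had medians of -0.35, 0.04, -0.45 and -0.15 log2 units in C12, C15, S04 and S36, lowest in the same pair; their part was not tested. PRKCQ, the protein kinase C of the T-cell synapse, lay between 41.4 and 54.9 CPM in KO and between 46.7 and 50.7 CPM in WT clones.

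BCL10 and MALT1 form the complex that passes the signal to NF-kappaB. BCL10 had 17.5, 13.3, 34.7 and 26.7 CPM in C12, C15, S04 and S36, against 19.8, 17.1, 12.6 and 13.6 CPM in WT10, WT13, WT28 and WT30. S04 and S36 were above every WT clone, and C12 and C15 lay within the WT range. The fold change was 0.57 log2 units over all KO clones (SE 0.28, edgeR adjusted p = 0.355) and 0.95 in S04 and S36 alone against WT (SE 0.21, edgeR adjusted p = 0.0239). MALT1 lay between 25.4 and 46.6 CPM in KO and between 24.7 and 36.9 CPM in WT clones.

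**Figure D4:**
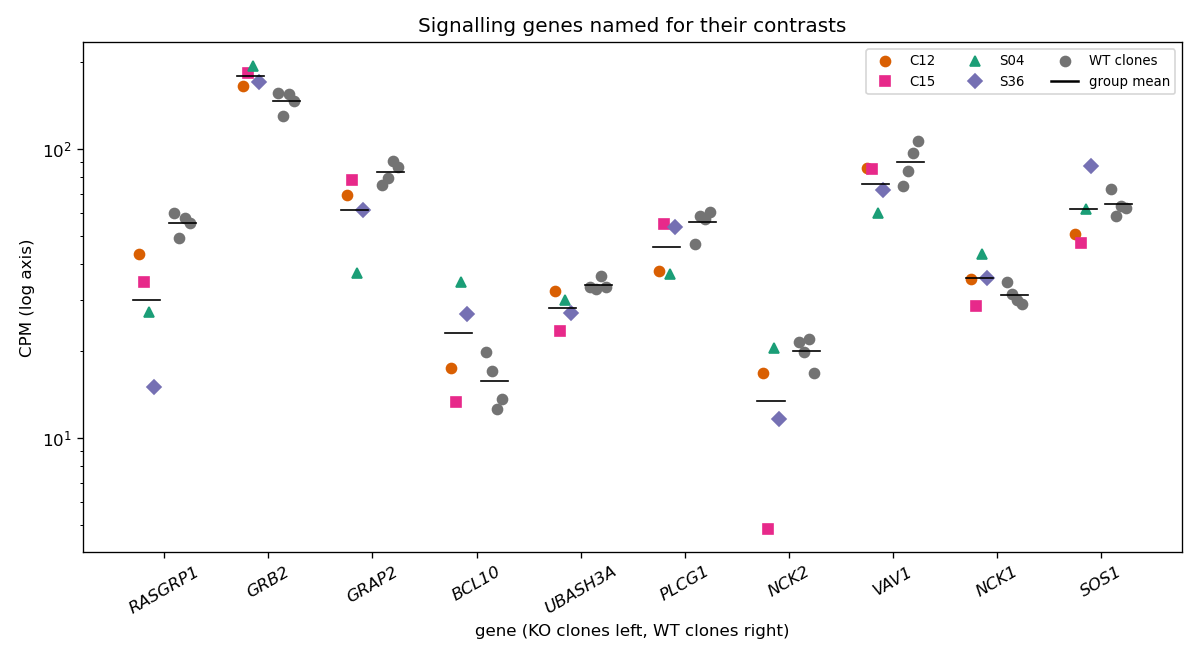
CPM on a log axis for the 10 signalling members named for the size of their p in either contrast; coloured symbols are KO clones, left of the grey WT clones, and bars are group means. RASGRP1 and UBASH3A lie lower and GRB2 higher in all 4 KO clones than in any WT clone, and BCL10 is highest in S04 and S36.

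Of the 5 phosphatases and ubiquitin-pathway regulators, 0 passed (edgeR, with 0 at an unadjusted p under 0.05). PTPRC encodes CD45, the phosphatase that keeps LCK ready. Its promoter (plus strand of chr1:198638790-198639089, RefSeq, GRCh38.p14) is shown because it and one FYN promoter were those with the NKX2-1 motif, in capitals here and 32 bases after the start.
PTPRC: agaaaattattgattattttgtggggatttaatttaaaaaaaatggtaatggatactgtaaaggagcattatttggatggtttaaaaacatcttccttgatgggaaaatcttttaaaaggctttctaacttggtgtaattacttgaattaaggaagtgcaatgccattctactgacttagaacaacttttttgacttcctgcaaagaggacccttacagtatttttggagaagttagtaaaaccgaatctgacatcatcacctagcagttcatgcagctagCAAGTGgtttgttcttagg
PTPRC had 198, 55.7, 115 and 369 CPM in C12, C15, S04 and S36, against 198, 141, 236 and 201 CPM in WT10, WT13, WT28 and WT30. The KO clones ran on both sides of the WT range, C15 and S04 below and S36 above, with a fold change of -0.06 log2 units (SE 0.44, edgeR adjusted p = 0.967).

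UBASH3A, a suppressor of receptor signalling, had 32.3, 23.4, 30.1 and 27.1 CPM in C12, C15, S04 and S36, against 33.2, 32.8, 36.3 and 33.2 CPM in WT10, WT13, WT28 and WT30. Every KO clone was lower than every WT clone by a small margin (28.2 ± 3.85 CPM in KO and 33.9 ± 1.65 CPM in WT clones, SD, n = 4 each; fold change -0.25 log2 units, SE 0.15, edgeR adjusted p = 0.444). PTPN22, a phosphatase of LCK and ZAP70, lay between 3.23 and 6.57 CPM in KO and between 3.64 and 5.24 CPM in WT clones. The ubiquitin ligase CBL lay between 125 and 142 CPM in KO and between 126 and 134 CPM in WT clones, and CBLB between 4.84 and 9.66 CPM in KO and between 7.08 and 8.79 CPM in WT clones. CD69, a surface marker of recent activation, was at most 1.15 CPM in KO and 1.51 CPM in WT clones.

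Spread among clones was the main feature of the group, and it was shared with the rest of the transcriptome. The SD of log2 CPM was larger among KO than among WT clones for 30 of the 34 members (88.2%) and for 88.9% of all genes; its median was 0.43 in KO and 0.17 in WT clones for members, and 0.47 and 0.18 for all genes. Members more than 1 log2 unit from the WT mean in at least 1 KO clone numbered 12, and TRAC, TRBC1, TRBC2, TRGC2 and RASGRP1 were so in 2 clones. The matching shares of all genes were not computed, so these counts are not read as a trait of the members. Shares for single clones follow. C12 had none, where 2.69% of all genes were that far below and 1.87% above. C15 had 6 of 34 that far below (TRAC, TRBC1, TRBC2, TRDC, NCK2 and PTPRC), where 16% of all genes were. It had 0 that far above, where 7.51% of all genes were. S36 had 6 below (TRAC, TRBC1, TRBC2, TRAT1, THEMIS and RASGRP1; 10.2% of genes) and 1 above (TRGC2; 7.74%). S04 had 2 below (GRAP2 and RASGRP1; 8.95%) and 2 above (TRGC2 and BCL10; 8.57%). The median member was -0.01, -0.27, 0.26 and -0.11 log2 units from its WT mean in C12, C15, S04 and S36.

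The C-named and S-named KO clones were set against each other in a fit of 3 groups in which WT clones share in the estimate of spread. The WT clones had the smaller spread, with a median SD of 0.18 against 0.47 in KO clones over all genes. The SE and p of this fit may thus be too small for a contrast between KO clones. Here 0 of 34 members passed (edgeR), with 6 at an unadjusted p under 0.05; over all genes 51 passed (0.358%) and 17.1% had such an unadjusted p. DESeq2 called 1 member, TRGC2, with 4.57% of all genes, and limma-voom 0, with 0.625% of all genes. Both had 6 members at an unadjusted p under 0.05, where 16.3% of all genes lay in DESeq2 and 16.5% in limma-voom. TRGC2 was lower in C than in S clones with -1.83 log2 units (SE 0.47, edgeR adjusted p = 0.106). BCL10 (-0.96, SE 0.28, edgeR adjusted p = 0.141) and SOS1 (-0.60, SE 0.20, edgeR adjusted p = 0.176) also had lower values in C clones. RASGRP1 (0.89, SE 0.27, edgeR adjusted p = 0.151), CD3E (0.67, SE 0.25, edgeR adjusted p = 0.208) and GRAP2 (0.57, SE 0.23, edgeR adjusted p = 0.252) had higher values in C clones. The median member difference was -0.13 log2 units, beside -0.05 over all genes. TRBC1 and TRAC, whose low clones are 1 of each letter, had -0.36 (SE 0.93) and 0.04 (SE 0.73).

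**Figure D5:**
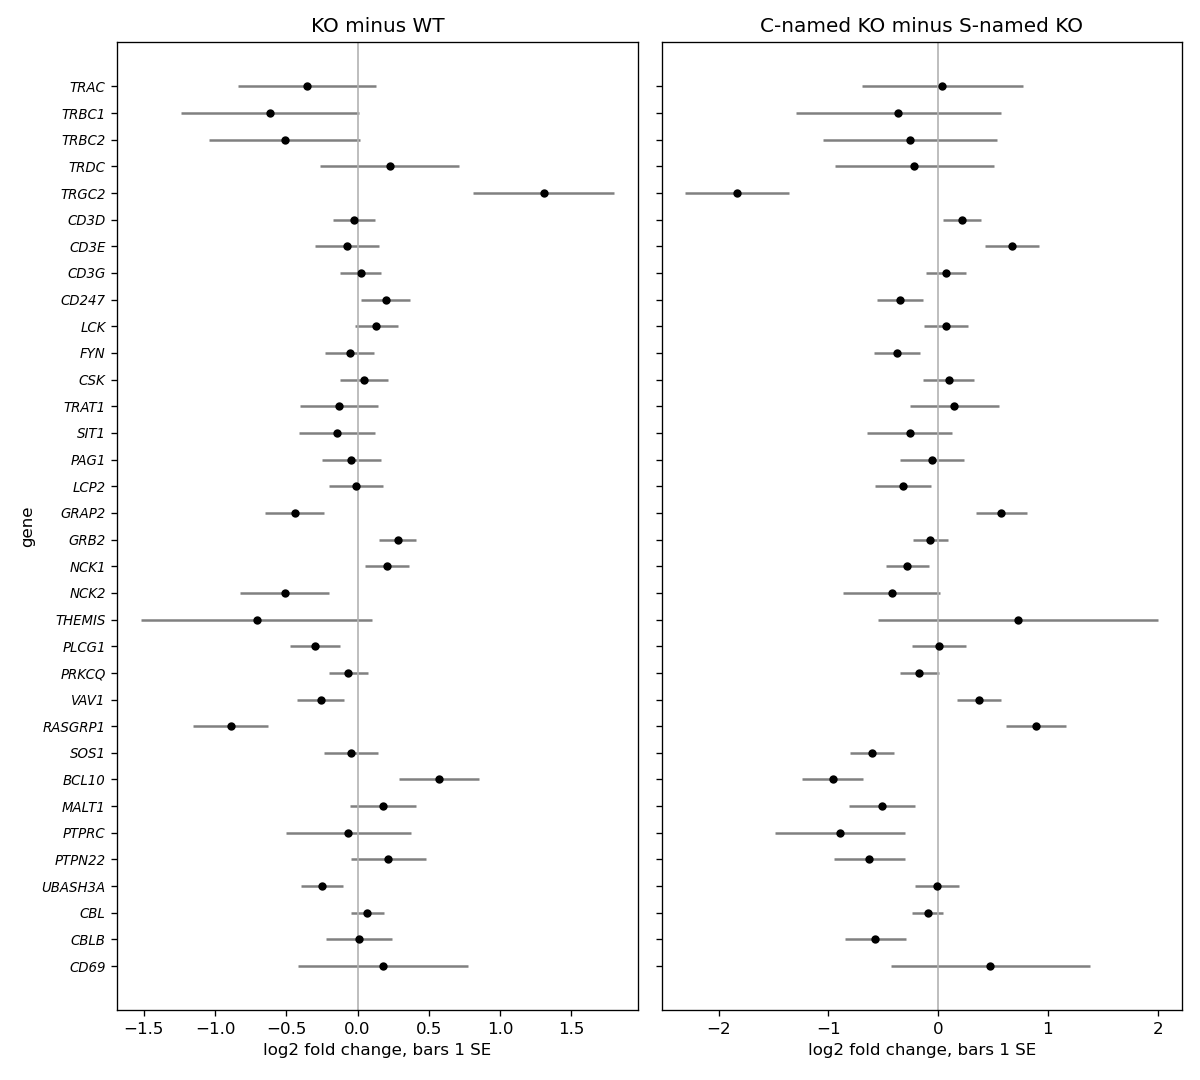
Points are log2 fold changes of the 34 tested members, KO minus WT on the left and C-named minus S-named KO clones on the right, with bars of 1 SE. TRGC2 lies at 1.31 and -1.83 and RASGRP1 at -0.89 and 0.89, and the bars of most CD3, kinase and membrane adaptor genes cross or come near 0 on the left.

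S04 and S36 taken alone against WT gave 4 of 34 members past the threshold, 11.8%: TRGC2 and BCL10 higher, RASGRP1 and GRAP2 lower, in a fit that called 14.5% of all genes. C12 and C15 taken alone gave 0 of 34 (edgeR, with 2 at an unadjusted p under 0.05), in a fit that called 0.0395% of all genes. The share of all genes at such an unadjusted p was not computed for that fit. With no low-count filter the C against S contrast called 3 members (TRGC2 and PTPRC lower, RASGRP1 higher in C clones) and 2.43% of all genes. Without C12 it called TRGC2 and 5.14% of genes, and without S04 it called RASGRP1 and 1.01%. That the 2 sets of clones differ from WT to different extents was tested only by the C against S contrast.

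Further along the pathway, 65 of 81 listed genes were tested and 0 passed in KO against WT (edgeR), with 12 at an unadjusted p under 0.05; over all genes these shares were 0.316% and 15.5%, and the counts of the lists that follow are to be read against them. Among co-receptors, the pre-TCR alpha chain and Tec kinases, 3 of 6 genes were tested and the median was -0.06 log2 units. PTCRA, the pre-TCR alpha chain that pairs with beta before alpha is rearranged, had 2.93, 15.7, 3.14 and 0.229 CPM in C12, C15, S04 and S36, against 1.76, 5.14, 0.0944 and 3.77 CPM in WT10, WT13, WT28 and WT30. It ranged widely within both genotypes (fold change 0.74 log2 units, SE 1.03, edgeR adjusted p = 0.774).

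In the calcium and NFAT list 13 of 14 genes were tested and 0 passed, with 4 at an unadjusted p under 0.05 and a median of -0.01 log2 units. NFATC3, an NFAT transcription factor, had 2.82, 2.83, 13.9 and 9.02 CPM in C12, C15, S04 and S36, against 2.71, 2.26, 2.26 and 2.53 CPM in WT10, WT13, WT28 and WT30. The S-named clones stood apart from the other 6 (KO against WT 1.61 log2 units, SE 0.47, edgeR adjusted p = 0.163), and NFATC3 was the 1 pathway gene that passed between C and S clones (-2.03 log2 units, SE 0.34, edgeR adjusted p = 0.0490). That call is at the edge of the threshold: it was kept in 5 of 14 other settings and lost in 9, with adjusted p from 0.000255 to 0.148, among them the fits without C12, C15, S04 or any 1 WT clone, and its log2 difference stayed between -2.30 and -1.67. The 14 settings leave out the fit on libraries thinned to the shallowest, which called 0 genes between C and S clones. The limit on spread given for the C against S fit holds for the NFATC3 call too. ITPR1, a calcium channel of the endoplasmic reticulum, had 28.7, 32.7, 40.3 and 42.3 CPM in C12, C15, S04 and S36, against 24.6, 28.4, 23.2 and 24.2 CPM in WT10, WT13, WT28 and WT30 (0.52 log2 units, SE 0.17, edgeR adjusted p = 0.187).

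In the NF-kappaB list 0 of 12 tested genes passed, with 2 at an unadjusted p under 0.05 and a median of -0.15 log2 units. REL, a subunit of the factor, had 43.9, 33.5, 33.4 and 52.2 CPM in C12, C15, S04 and S36, against 60.8, 61.4, 67.3 and 63.6 CPM in WT10, WT13, WT28 and WT30 (-0.62 log2 units, SE 0.17, edgeR adjusted p = 0.138). NFKBIA, its inhibitor and target, had 133, 98.5, 111 and 62.7 CPM in C12, C15, S04 and S36, against 141, 157, 156 and 138 CPM in WT10, WT13, WT28 and WT30 (-0.54 log2 units, SE 0.20, edgeR adjusted p = 0.242). For both genes every KO clone was below every WT clone. REL, like SOS1, lies on chromosome 2, whose medians in KO clones are given with NCK2.

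In the Ras and MAP kinase list 0 of 15 tested genes passed in edgeR, with a median of -0.04 log2 units. NF1, a brake on Ras, had 39.6, 83.2, 19.0 and 42.0 CPM in C12, C15, S04 and S36, against 40.9, 29.02, 30.1 and 36.2 CPM in WT10, WT13, WT28 and WT30 (0.39 log2 units, SE 0.35, edgeR adjusted p = 0.627).

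Among inhibitors 0 of 15 tested genes passed, with 3 at an unadjusted p under 0.05 and a median of -0.06 log2 units. DGKA, which removes the diacylglycerol that recruits RASGRP1, had 172, 224, 120 and 103 CPM in C12, C15, S04 and S36, against 188, 217, 262 and 239 CPM in WT10, WT13, WT28 and WT30 (-0.56 log2 units, SE 0.23, edgeR adjusted p = 0.288). It was lowest in S04 and S36, where RASGRP1 was lowest too. INPP5D, an inositol phosphatase, had 1.16, 2.83, 2.05 and 2.06 CPM in C12, C15, S04 and S36, against 1.38, 0.840, 0.566 and 1.15 CPM in WT10, WT13, WT28 and WT30 (0.94 log2 units, SE 0.40, edgeR adjusted p = 0.298).

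Of the 16 immediate-early and activation response genes 7 were tested and 0 passed, with 1 at an unadjusted p under 0.05 and a median of -0.15 log2 units. CD40LG, a ligand that activated T cells show to B cells, had 144, 134, 223 and 167 CPM in C12, C15, S04 and S36, against 225, 273, 291 and 260 CPM in WT10, WT13, WT28 and WT30. All KO clones were lower (-0.65 log2 units, SE 0.18, edgeR adjusted p = 0.146). EGR1, an early response factor, had 8.53, 2.42, 9.90 and 4.97 CPM in C12, C15, S04 and S36, against 11.8, 8.13, 15.003 and 9.23 CPM in WT10, WT13, WT28 and WT30 (-0.68 log2 units, SE 0.35, edgeR adjusted p = 0.373). The lowest EGR1 values were in C15 and S36, the clones low in TRBC1. Nothing in the labels dates the cultures or the sequencing runs, so each p-value here reflects how far the 8 clones vary, and part of that may be technical.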

How the data were processed

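Per the labels, total RNA of 8 RPMI-8402 clones was extracted with a column kit and sequenced from Illumina libraries. The authors deposited 1 table of whole-number counts per gene, not normalized; per the submitters' processing notes the tools were FastQC, TopHat2, SAMtools and Subread, with the hg38 build, versions and strand setting not given in the sources used here. Reads that overlap 2 genes, or match near copies, can be lost or misplaced by such counting.

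From these counts, genes were filtered with filterByExpr, scaled with TMM and tested with edgeR 4.0.16 (quasi-likelihood, two-sided, Benjamini-Hochberg over all 14243 genes tested, threshold 0.05) in R 4.3.3. The SE of a log2 fold change is the one its F statistic implies. DESeq2 1.42.0 and limma 3.58.1 (voom) were alternatives, with other filters, scaling, thinning and left-out clones. The KO against WT fit was tested on simulated data with known changes and the same spread per gene in both groups. In the real data the spread was larger among KO clones for 88.9% of genes, a setting that the simulation did not cover. The C against S fit was not simulated. CPM are counts over TMM-scaled library sizes; log2 CPM used a prior count of 2. Library totals of 2730285 to 25423215 set the precision. No pair of libraries of 1 group agreed within sampling noise. GENCODE 29 gave positions for 57038 of 61228 genes, and lengths were taken for the 38 members.

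Values in every clone are given for the receptor and CD3 chains, for the 12 members with the smallest p in KO against WT and the 6 in C against S, and up to 2 genes of each pathway list (some are not reported here); LCK, TRAT1, PTPRC, ZAP70, THEMIS, AIF1 and the genes beside the receptor loci were added after their values were seen. The members and lists were chosen with earlier results of these data known.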

Additional observations from a re-analysis of the deposited data

Results flagged for a closer look

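1 of 38 groups of 4 clones looked at held a clone far from the other 3 for its group's range, where chance gives about 1.9. It was UBASH3A, the suppressor of receptor signalling, in WT28, at a log2 CPM of 5.188 where the other 3 WT clones lay close together.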

How the results depend on the processing

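Counts of calls depended strongly on the setting, and the members' counts stayed low. KO against WT gave 45 genes, and 581 with no low-count filter, 521 with DESeq2, 94 with limma-voom, 0 after thinning all libraries to the shallowest, 6 in C12 and C15 alone and 2211 in S04 and S36 alone against WT; leaving out each clone in turn gave 3 to 456. Members past the threshold were 0, and 2 with no filter (TRGC2 and RASGRP1), 4 in S04 and S36 alone, and 0 to 1 with a clone left out (RASGRP1 without C12). C against S gave 51 genes, and 14 with DESeq2's size factors, 762 with no filter, 14 at a CPM of at least 1 in 4 clones, 651 with DESeq2, 89 with limma-voom, 0 after thinning and 0 to 749 with a clone left out. Members there were 0, and 3 with no filter (TRGC2, RASGRP1 and PTPRC), 1 with DESeq2 (TRGC2) and 0 to 1 with a clone left out (TRGC2 without C12, RASGRP1 without S04).

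Some of the log2 differences named changed sign. CD3D was 0.0071 after thinning and 0.064 in the C-named clones alone, CD3E 0.20 in the C-named clones alone, CD3G -0.033 with no filter and -0.027 in the S-named clones alone, and BCL10 -0.0039 in the C-named clones alone, beside 0.57 over all KO clones. With a clone left out TRDC ran from -0.10 to 0.51, CD3D from -0.11 to 0.025, CD3E from -0.30 to 0.11 and CD3G from -0.058 to 0.095. Over the same left-out clones RASGRP1 stayed between -1.15 and -0.66, and GRB2, UBASH3A and PLCG1 within 1.5 times of their values. Others moved by more: TRGC2 0.79 to 1.60, TRAC -0.67 to -0.04, TRBC1 -1.18 to -0.27, TRBC2 -0.97 to -0.20, CD247 0.11 to 0.32, GRAP2 -0.57 to -0.26, BCL10 0.32 to 0.73, NCK1 0.11 to 0.28, NCK2 -0.75 to -0.30 and VAV1 -0.34 to -0.16. In C against S, TRGC2 ran from -2.93 to -1.38, RASGRP1 from 0.53 to 1.40, SOS1 from -0.83 to -0.33, CD3E from 0.36 to 1.06 and GRAP2 from 0.25 to 0.98. The cause of these shifts was not tested. C15, at 2730285 counts, limits every low value: TRBC2 and TRDC there rest on 3 counts each. No paired analysis was possible because the clone names carry no number shared between groups.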
